A study of Mus musculus with 10 samples.

Results

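Fgl2, Il18rap, Traf3ip3 and Mc5r were followed through the in vitro differentiation of mouse ES cells to blood as a set of 4 genes out of 15686 in the matrix of stage means and 22596 genes tested. They were chosen by the measured rise of their level in HE2 or HP over HE1, as genes with some of the largest values, so their levels in those stages are a description, and no test of them is read as evidence. HM-1 ES cells, an established mouse line made for gene targeting, grew with LIF (the ES stage). Embryoid bodies formed from them in serum over 3 days, and FLK1+ cells taken from these on magnetic beads were the hemangioblast stage (HB). After blast culture with VEGF and IL-6, the hemogenic endothelium was sorted into HE1 (KIT+ TIE2+ CD41-) and HE2 (KIT+ TIE2+ CD41+), and hematopoietic progenitors (HP) as KIT+ TIE2- CD41+ cells. Each stage had 2 libraries of nuclear RNA, 10 in all, and every stage descends from this 1 parental line with no label of a modification or of a treatment beyond differentiation. The labels number the libraries of a stage without saying more, and the study describes its replicates of expression by stage as biologically independent. The errors below are the spread between these libraries.

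In the endothelial-to-hematopoietic transition, hemogenic endothelial cells give up endothelial gene expression and take on that of blood as RUNX1 rises. FGL2, a fibrinogen-like protein, acts on cell surfaces as a prothrombinase and in soluble form as an immunoregulatory ligand of Fc gamma receptors. IL18RAP is the accessory chain of the IL-18 receptor and signals only together with the binding chain IL18R1. TRAF3IP3 binds the adaptor TRAF3 and links it to antiviral signalling through MAVS, while MC5R is a melanocortin receptor that raises cyclic AMP and is best known from exocrine glands, so that it is an immune gene in a looser sense than the other members.

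All 4 genes are protein coding on GRCm38. Fgl2 (ENSMUSG00000039899) lies on chromosome 5 from 21372642 to 21378374 on the plus strand, and Il18rap (ENSMUSG00000026068) on chromosome 1 from 40515362 to 40551705 on the plus strand. Traf3ip3 (ENSMUSG00000037318) lies on chromosome 1 from 193175453 to 193201703 on the minus strand. The position of Mc5r is given with its levels.

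RefSeq promoter windows (GRCm38.p6, 250 bases before to 50 after a start) were found for 3 of the 4, all but Mc5r. They are shown as the start regions of genes chosen for their rise over HE1, and nothing is read from the fact that these genes rose together. For Fgl2 and Il18rap the bases upstream of both the RefSeq and the Ensembl start are printed, at chr5:21372423-21372641 and chr1:40515112-40515361, both on the plus strand. For Traf3ip3 the 2 stretches of 30 bases that hold a match are printed, since its Ensembl start lies 157 bases upstream of the RefSeq start. Capitals mark GAGGAAGT, a motif bound by PU.1 and related ETS factors, on either strand.
Fgl2 promoter: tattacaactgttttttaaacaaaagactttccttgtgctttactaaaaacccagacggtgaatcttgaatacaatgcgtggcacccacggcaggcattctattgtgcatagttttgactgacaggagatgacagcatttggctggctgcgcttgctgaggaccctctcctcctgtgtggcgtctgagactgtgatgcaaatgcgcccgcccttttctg
Il18rap promoter: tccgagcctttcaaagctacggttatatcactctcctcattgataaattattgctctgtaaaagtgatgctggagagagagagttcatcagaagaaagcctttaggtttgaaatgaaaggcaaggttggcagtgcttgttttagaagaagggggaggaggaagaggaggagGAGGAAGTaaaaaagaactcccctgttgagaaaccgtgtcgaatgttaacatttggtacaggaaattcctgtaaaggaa
Traf3ip3 site 106 bases upstream of the RefSeq start: agcaccaaccaGAGGAAGTgaatactgggc
Traf3ip3 site 32 bases upstream of the RefSeq start: tgcctgggtggACTTCCTCaccagccctgg
GAGGAAGT stood 1 time in the 300 bases of Il18rap, 79 bases upstream of its start, and 2 times in those of Traf3ip3, once on each strand. It was not found in the window of Fgl2. Of all 32851 promoter windows, 3.2% held it. The RUNX motif TGTGGT, held by 16.8% of windows, was found 1 time, on the reverse strand 32 bases into the Il18rap transcript. The AP-1 motif TGANTCA, in 7.81% of windows, was found 1 time, 16 bases upstream of the RefSeq start of Fgl2. The GATA motif AGATAA, in 11.2% of windows, was in none of the 3 windows. Both strands were searched, none of these matches overlapped another, and the motifs were chosen after the sequences had been seen. A match of letters is no evidence of binding.

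Reads assigned to genes numbered between 24920434 and 58782055 per library. Levels are given in CPM, counts scaled to library size with TMM factors, and 3 counts, taken as the floor of detection, correspond to between 0.0532 and 0.126 CPM. This floor covers counting error only. The replicate libraries of a stage correlated across genes with a Pearson r of log2 CPM from 0.967 in HE1 to 0.994 in ES. Among transcripts of the sorted antigens, Itga2b (CD41) was higher in HE2 than in HE1 by 1.46 on the log2 scale (SE 0.254, adjusted p = 0.00921, edgeR quasi-likelihood test), and Tek (TIE2) was lower in HP than in HE1 by a log2 difference of -2.77 (SE 0.321, adjusted p = 0.000392). Between HE2 and HP, which the sort parts by TIE2, the difference of Tek was -1.82 (SE 0.31, adjusted p = 0.0722) and was not called. Kit, whose product all 3 sorted stages carry, was higher in HE2 (1.55, adjusted p = 0.0207) and HP (1.49, adjusted p = 0.0103) than in HE1, calls that were lost without HE1 replicate 2 and without HE2 replicate 2 or HP replicate 1, respectively.

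Fgl2 went from nearly off to clearly expressed between HE1 and HE2. It had 18 and 5 counts in the HE1 libraries, 408 and 806 in HE2 and 1889 and 1585 in HP, against 55 and 29 in ES and 6 and 7 in HB. In CPM the HE1 pair was 0.757 and 0.165, the HE2 pair 12.4 and 25.6, and the HP pair 43.1 and 50.4. The 3 stages did not overlap, and every HE2 library lay below every HP library. In ES the gene stood at 0.976 and 0.832 CPM, above both HE1 libraries, and in HB at 0.198 and 0.197 CPM, within the range of HE1. The mean rose from 0.461 ± 0.419 CPM in HE1 to 19 ± 9.3 in HE2 (SD, n = 2), a log2 difference of 5.43 (SE 0.529), or 43.1-fold, and reached 46.7 ± 5.16 in HP, 6.73 above HE1 (SE 0.543).

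Il18rap came closest to its HP level already in HE2. The HE1 libraries held 12 and 8 counts, the HE2 libraries 356 and 622, and the HP libraries 999 and 696, after 5 and 1 in ES and 8 and 2 in HB. The levels were 0.505 and 0.264 CPM in HE1, 10.8 and 19.7 CPM in HE2, and 22.8 and 22.1 CPM in HP. HE1, HE2 and HP did not overlap, although the higher HE2 library came within a few CPM of the HP pair. In ES (0.0887 and 0.0287 CPM) and HB (0.264 and 0.0563 CPM) the transcript was at or near the floor, and the higher HB library met the lower HE1 library. The mean rose from 0.384 ± 0.17 CPM in HE1 to 15.3 ± 6.29 in HE2 and 22.5 ± 0.47 in HP (SD, n = 2), log2 differences over HE1 of 5.33 (SE 0.526) and 5.89 (SE 0.532).

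Traf3ip3 was nearly silent up to HE1. It was counted 8 and 7 times in HE1, 240 and 437 times in HE2, and 1072 and 520 times in HP, and no ES or HB library had more than 7 counts. These were 0.336 and 0.231 CPM in HE1, 7.31 and 13.9 CPM in HE2, and 24.5 and 16.5 CPM in HP. The stages followed each other without overlap from ES (0.0177 and 0.0574 CPM) through HB (0.0661 and 0.197 CPM) to HP, but 3 of the 4 libraries of ES and HB stood at or under the floor of 3 counts, so the order of these stages is not resolved at this depth. The mean rose from 0.284 ± 0.0745 CPM in HE1 to 10.6 ± 4.64 in HE2 and 20.5 ± 5.6 in HP (SD, n = 2), log2 differences over HE1 of 5.23 (SE 0.518) and 6.18 (SE 0.527).

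Mc5r (ENSMUSG00000007480), on GRCm38 chromosome 18 from 68337596 to 68342446 on the plus strand, varied most between replicates in HE2 and HP. The HE1 libraries held 20 and 14 counts, the HE2 libraries 335 and 1103, and the HP libraries 2565 and 1081. The levels were 0.841 and 0.462 CPM in HE1, 10.2 and 35 CPM in HE2, and 58.5 and 34.4 CPM in HP. Both later stages lay far above HE1, but HE2 and HP overlapped, since the higher HE2 library slightly exceeded the lower HP library. Mc5r was clearly present in ES cells, at 308 and 162 counts or 5.46 and 4.65 CPM, and dropped to 11 and 2 counts in HB. The mean rose from 0.652 ± 0.268 CPM in HE1 to 22.6 ± 17.5 in HE2 and 46.4 ± 17.1 in HP (SD, n = 2), log2 differences over HE1 of 5.14 (SE 0.682) and 6.18 (SE 0.7).

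**Figure D1:**
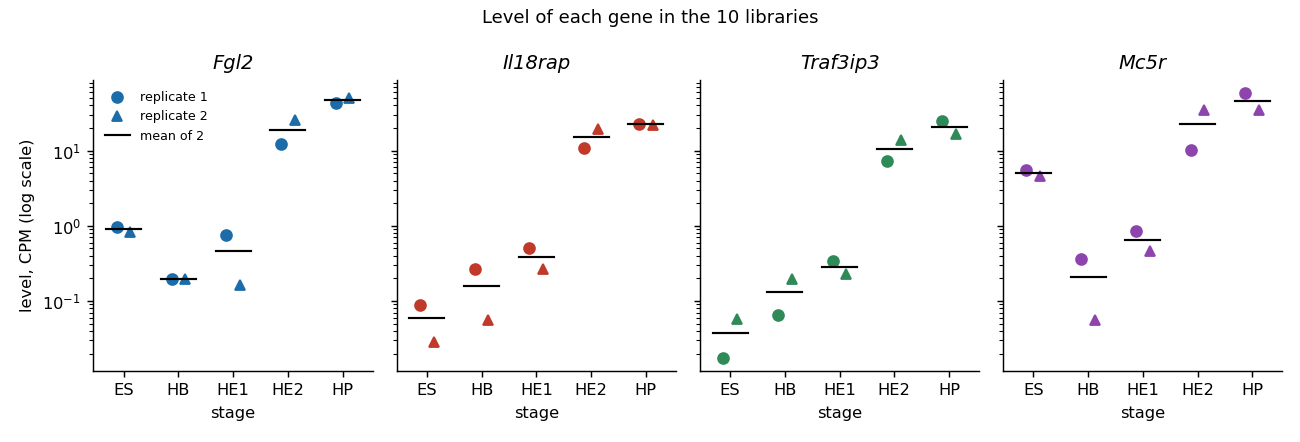
Level of Fgl2, Il18rap, Traf3ip3 and Mc5r in CPM (log scale, vertical axis) at each stage, with circles for replicate 1, triangles for replicate 2 and a line for the mean of the 2 libraries. All 4 genes step up between HE1 and HE2, in each case with HE2 replicate 1 below HE2 replicate 2, and Mc5r and Fgl2 also have signal in ES.

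Between genes, levels were compared per kilobase of exon (CPM divided by the exon length of 3.79 kb for Fgl2, 6.75 kb for Il18rap, 5.76 kb for Traf3ip3 and 3.9 kb for Mc5r). On this scale the set fell into a higher and a lower pair in HP, with Fgl2 at 12.3 ± 1.36 and Mc5r at 11.9 ± 4.37 above Traf3ip3 at 3.56 ± 0.974 and Il18rap at 3.33 ± 0.0696 (SD, n = 2). The levels of the higher pair, 8.8 to 15, did not overlap those of the lower pair, 2.87 to 4.25, while neither pair separated within itself. In HE2 the means kept these pairs, at 5.02 ± 2.46 for Fgl2 and 5.79 ± 4.49 for Mc5r against 1.84 ± 0.806 for Traf3ip3 and 2.27 ± 0.932 for Il18rap, but the libraries of Mc5r, at 2.61 and 8.97, overlapped those of Il18rap, at 1.61 and 2.92.

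The place of the 4 genes in the ranking that chose them is given without a test. Among the 10136 matrix genes at 9 CPM or more in HE1 or HE2, Fgl2, Il18rap and Traf3ip3 ranked 1, 2 and 3 by log2 difference of HE2 over HE1, and Mc5r ranked 6. Just outside stood Evi2 (5.22) and Evi2b (5.17), 2 genes of 1 locus that rank between Traf3ip3 and Mc5r, and Mmrn1 (5.09), which encodes a platelet and endothelial protein, after Mc5r. In HP over HE1, among 10258 genes, Cytip came first at 6.85, Fgl2 ranked 2, Traf3ip3 10, Mc5r 11 and Il18rap 14. The minimum level decides these places, because genes of very low counts reach larger ratios. Of all genes tested, 3.26% were called higher and 5.39% lower in HE2 than in HE1, and in HP over HE1 these shares were 5.35% and 11.2%, where a call is an adjusted p under 0.05 in the edgeR quasi-likelihood test and a change of at least 2-fold. These shares depend on single libraries: in HE2 over HE1, 314 genes were called higher and 106 lower without HE2 replicate 2, 352 and 226 without HE1 replicate 2, and 509 and 505 with only the 4 libraries compared, against 737 and 1217 with all. The members' own differences in both comparisons, which share the HE1 libraries, chose them, and nothing is read from their calls.

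How far each gene was on in HE2 relative to HP was taken from the mean CPM of both stages. Fgl2 stood in HE2 at 40.7% of its HP level, Mc5r at 48.7%, Traf3ip3 at 51.7% and Il18rap at 68.1%. Counted from HE1, 40.1% of the rise in CPM of Fgl2 had taken place in HE2, 48% of that of Mc5r, 51% for Traf3ip3 and 67.6% for Il18rap, whereas on the log2 scale the shares were 80.7%, 83.2%, 84.6% and 90.6%. Over the 1210 genes called higher in HP than in HE1, the median level in HE2 was 68.2% of that in HP (quartiles 48.4% and 86.5%). Il18rap lay at this median, with 49.8% of these genes below it, while 29.4% lay below Traf3ip3, 25.4% below Mc5r and 17% below Fgl2. The level as a percent of HP also includes what a gene already had in HE1. Counted as a share of the rise in CPM from HE1, the median over these genes was 57.8%. On that measure Il18rap lay above the median and the other members below it. On the log2 scale, where a large rise makes a remaining step look small, all 4 were above the median share of 76.7%.

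**Figure D2:**
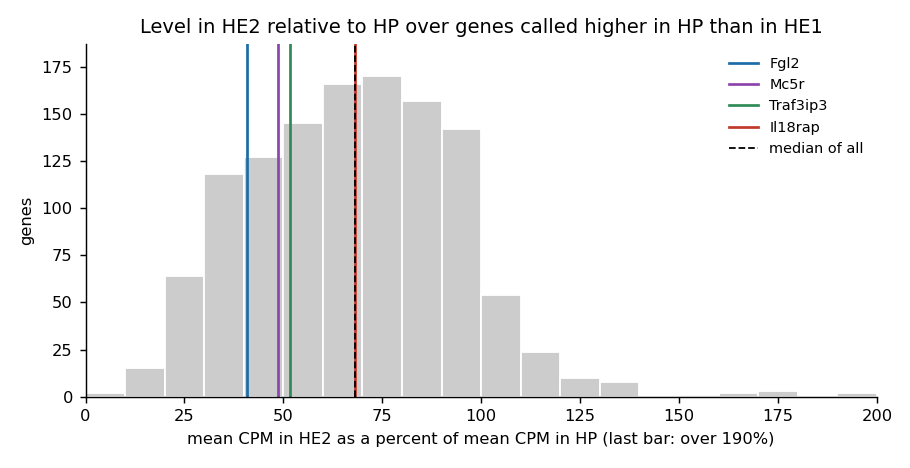
Number of genes (vertical axis) by mean CPM in HE2 as a percent of mean CPM in HP (horizontal axis), for the 1210 genes called higher in HP than in HE1, with 2 genes over 200% drawn in the last bar. Coloured lines mark Fgl2 at 40.7%, Mc5r at 48.7%, Traf3ip3 at 51.7% and Il18rap at 68.1%, the last on the dashed median of 68.2%.

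On the log2 scale the step that remained from HE2 to HP was smaller than the rise from HE1 to HE2, whereas in CPM it was the larger of the 2 steps for Fgl2 and Mc5r. The log2 difference of HP over HE2 was 1.30 for Fgl2 (SE 0.391, 95% interval 0.43 to 2.16), 0.95 for Traf3ip3 (SE 0.384, 0.10 to 1.80), 1.04 for Mc5r (SE 0.521, -0.11 to 2.19) and 0.55 for Il18rap (SE 0.393, -0.32 to 1.43). In this comparison 0% of all genes were called in either direction by edgeR, with 670 higher and 1113 lower at an unadjusted p under 0.05, while limma-voom called 35 higher and 27 lower and DESeq2 called 108 higher and 193 lower. The members' differences are a description and their intervals show the spread only, because the libraries of HE2 and HP served in choosing them.

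**Figure D3:**
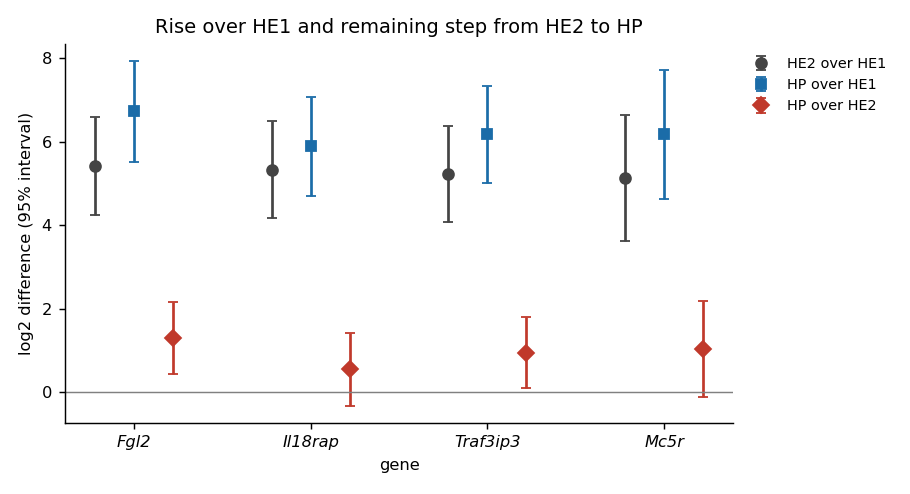
Log2 difference with its 95% interval (vertical axis) for each gene (horizontal axis), with circles for HE2 over HE1, squares for HP over HE1 and diamonds for HP over HE2. The rises over HE1 lie between 5.14 and 6.73, and the remaining steps from HE2 to HP between 0.55 and 1.30.

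The size of that remaining step rested on which HE2 library was used. In all 4 genes HE2 replicate 1 was the lower, at 48.6% of replicate 2 for Fgl2, 54.9% for Il18rap, 52.7% for Traf3ip3 and 29.2% for Mc5r. HE2 replicate 1 was also the lower in 906 of the 1210 genes called higher in HP than in HE1, or 74.9%, with a median of 77% of replicate 2 (quartiles 63.5% and 100.2%), and only 1.16% of these genes had a lower ratio than Mc5r. With HE2 replicate 2 alone, the level in HE2 was 54.7% of HP for Fgl2, 87.9% for Il18rap, 67.7% for Traf3ip3 and 75.4% for Mc5r. With HE2 replicate 1 alone it was 26.6%, 48.3%, 35.7% and 22%. The log2 difference of HP over HE2 then ran from 0.87 to 1.91 for Fgl2, from 0.19 to 1.05 for Il18rap, from 0.56 to 1.49 for Traf3ip3 and from 0.41 to 2.19 for Mc5r.

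Cell type markers differed between the HE2 libraries as well. All 10 endothelial markers were higher in HE2 replicate 1, with a summed level of 2999 CPM against 1653 in replicate 2, and all 8 blood progenitor markers were lower, with 1146 against 1700 CPM. Cdh5, the endothelial cadherin, stood at 862.3 and 412 CPM, and Runx1, the regulator of the transition, at 295.1 and 519.1 CPM. The endothelial sum was 4712 and 3259 CPM in HE1 and 819 and 944.9 CPM in HP, and the progenitor sum 358.2 and 306.4 CPM in HE1 and 1692 and 1386 CPM in HP, so that on both sums HE2 replicate 1 lay nearer to HE1 than replicate 2 did. The mesenchymal sum was higher in replicate 1, at 981.7 CPM against 637.1 CPM in replicate 2. It did not separate HE1 (865.9 and 1742 CPM) from HP (1182 and 579.8 CPM), so it does not order the HE2 libraries between them. The megakaryocyte (1108 and 1487 CPM) and mast cell (2.8 and 3.84 CPM) sums, which were low in HE1, were lower in replicate 1. Itgb3 and Cpa3, respectively, made up most of these 2 sums. In each of these 2 lists 3 of 7 markers were higher in replicate 1. The erythroid sum lay further from HE1 in replicate 1, at 2217 CPM in HE2 replicate 1 and 1701 CPM in replicate 2 against 548.2 and 267.4 CPM in HE1. The macrophage sum was 43.3 and 45 CPM, with 4 of 12 markers higher in replicate 1, among them Lyz2 (14.7 and 13 CPM) and Cd68 (8.47 and 5.02 CPM), and with Fcer1g (2.53 and 7.56 CPM), Tyrobp (3.38 and 4.79 CPM) and Mpeg1 (1.46 and 2.13 CPM) among those lower. The part of this in the members' levels was not tested. In bulk samples, fewer cells that express a gene and less RNA of it per cell cannot be told apart.

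**Figure D4:**
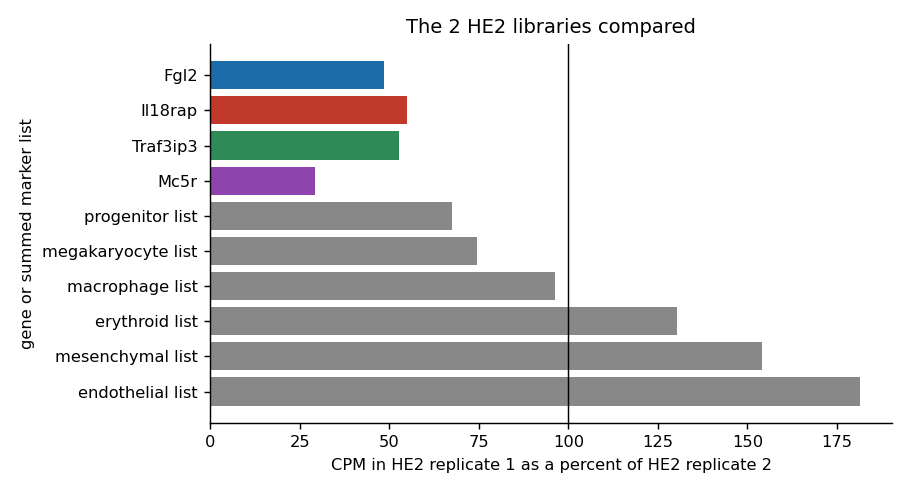
CPM in HE2 replicate 1 as a percent of HE2 replicate 2 (horizontal axis, line at 100%) for the 4 genes in colour and for the summed level of marker lists in grey. The 4 genes lie between 29.2% and 54.9%, the progenitor list at 67.4% and the endothelial list at 181.4%.

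Fgl2, Il18rap and Traf3ip3 are known from mature immune cells, and markers of these cells were looked up beside them. Of 12 macrophage and monocyte markers, 10 were tested, of which 6 were called higher in HE2 than in HE1 and 9 in HP. Over all tested genes these shares were 3.26% and 5.35%. The summed level of the 12 markers was 11.2 and 18.8 CPM in HE1, 43.3 and 45 CPM in HE2, and 94.9 and 90.1 CPM in HP. Tyrobp rose from 0.168 and 0.132 CPM in HE1 to 3.38 and 4.79 CPM in HE2 (log2 difference 4.75, adjusted p = 0.00177), Itgam (CD11b) from 0.883 and 0.561 to 6.92 and 7.87 CPM (3.37, adjusted p = 0.000612) and Lyz2 from 1.05 and 1.98 to 14.7 and 13 CPM (3.17, adjusted p = 0.00177). Cx3cr1, with at most 3 counts in an HE1 library, reached 1.71 and 1.81 CPM, and Mpeg1 and Fcer1g were the other calls. That of Mpeg1 was lost without HE1 replicate 2, without HE2 replicate 2 and with only the 4 libraries compared, and that of Fcer1g without HE1 replicate 2. Cd68, at 7.53 and 13.7 CPM, made up most of the macrophage sum in HE1. The complement gene C1qa had no count in any library and C1qb was at most at 0.297 CPM. Adgre1, which encodes F4/80, was at most at 2.26 CPM but was called higher in HP than in HE1 (2.90, adjusted p = 0.0291), a call that held in 13 of 17 alternatives. That of Fcgr1 in HP held in 9. Of 11 T, NK and B cell markers, 5 were tested and 0 of these were called in HE2 or HP over HE1. Over all tested genes 3.26% were called higher and 5.39% lower in HE2, and 5.35% and 11.2% in HP. Beside such shares, 0 of 5 says little about these cells. Cd3g and Ncr1 had no count in any library, and the summed level was 1.81 and 4.23 CPM in HE1, 0.945 and 0.889 CPM in HE2, and 0.753 and 2.38 CPM in HP. The mast cell list summed to 2.8 and 3.84 CPM in HE2, mostly from Cpa3 (1.8 and 3.05 CPM), a gene also used by progenitors, with Cma1 at 0. The megakaryocyte list rose from 102.2 and 70.7 CPM in HE1 to 1108 and 1487 CPM in HE2, nearly all of it from Itgb3 (1065 and 1405 CPM). All 7 erythroid markers were called higher in HE2 and in HP than in HE1, against 3.26% and 5.35% of all tested genes. The call of Hbb-y in HE2, however, held in only 10 of 17 alternatives and was lost without any 1 of the ES, HB or HE2 libraries or HE1 replicate 2. The part of these cells in the members' levels was not tested.

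IL-18 needs both receptor chains, and here the binding chain was all but missing. Il18r1, the neighbour of Il18rap on the same strand that ends 14.5 kb before it, had no count in HB and HE1, 1 count in each HE2 library and 2 and 4 counts in HP, and was too low to test. The cytokine gene Il18 was at most at 0.297 CPM in HE1, HE2 and HP, and Casp1, whose product matures IL-18, at most at 0.73 CPM. Il18bp, which encodes the soluble IL-18 antagonist, stood at 5.15 and 3.17 CPM in HE2 after 7.57 and 10.3 CPM in HE1 (log2 difference -1.11, SE 0.387, adjusted p = 0.0769). Among the other 17 genes of the IL-18 list, 15 were tested, 3 were called higher in HE2 than in HE1 (3.26% over all tested genes) and 0 lower, and 5 were called higher in HP (5.35% over all), of which Myd88 and Irak4 lost their call without HE1 replicate 2 or HP replicate 1. Il1rl1, the IL-33 receptor of the same gene cluster, rose most, from 0.21 and 0.132 CPM in HE1 to 2.41 and 8.25 CPM in HE2 and 9.06 and 7.53 CPM in HP (log2 difference of HE2 over HE1 4.96, SE 0.71, adjusted p = 0.00335). It shared the low HE2 replicate 1, and its call held in all 17 alternatives. Il1r2, a decoy receptor, rose to 0.457 and 0.698 CPM (2.62, SE 0.7, adjusted p = 0.0378) and Myd88, the adaptor of these receptors, from 18.1 and 12.5 to 26.3 and 38.3 CPM (1.08, SE 0.249, adjusted p = 0.0244). The call of Il1r2 held in 8 of the 17 alternatives and that of Myd88 in 13, and without HE1 replicate 2 or without HE2 replicate 2 only 1 gene of the list was called higher. Il1rap, the accessory chain that pairs with the IL-1 and IL-33 receptors, did not pass, with 11.1 and 9.97 CPM in HE1 and 10.5 and 11 CPM in HE2 (0.03, SE 0.214).

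The partners of TRAF3IP3 were present before it. Traf3 stood at 48.6 and 40.7 CPM in HE1, 32.6 and 27.7 CPM in HE2 and 21.1 and 24.5 CPM in HP, a log2 difference of HE2 over HE1 of -0.57 (SE 0.164, adjusted p = 0.047) that is under 2-fold. Mavs was at 22.8 and 18.6 CPM in HE1 and 26.3 and 30.4 CPM in HE2 (0.46, SE 0.175, adjusted p = 0.0972). Of the 19 other genes of the TRAF3 and RIG-I-like receptor list, all tested, 1 was called higher and 3 lower in HE2 than in HE1, where 3.26% and 5.39% of all tested genes were called. Ifih1, which encodes the RNA sensor MDA5, rose by 1.03 (SE 0.301, adjusted p = 0.0479), while Cd40, a receptor that recruits TRAF3, fell by a log2 difference of -2.37 (SE 0.649, adjusted p = 0.0407), Ikbke by -1.71 (SE 0.495, adjusted p = 0.0477) and Traf3ip2 by -1.27 (SE 0.347, adjusted p = 0.0396). These calls lie close to the threshold and held in 5 to 9 of 17 alternatives, and without HE1 replicate 2 or HE2 replicate 2, among others, none of the 4 was called. In HP, where the calls were 2 higher and 2 lower against 5.35% and 11.2% over all tested genes, Ifih1 (1.67, adjusted p = 0.00339) and Cd40 (-4.12, adjusted p = 0.00278) held in all 17, Traf3ip2 (-1.63, adjusted p = 0.00797) in 15, lost without HE1 replicate 2 or HP replicate 1, and Irf7 (1.52, adjusted p = 0.0482) in only 2.

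Mc5r was the only receptor of its family at more than 5 CPM in any library. Mc1r stood at 1.51 and 3.6 CPM in HE1 and 0.213 and 0.603 CPM in HE2 (log2 difference -2.65, SE 0.649, adjusted p = 0.0296, a call that held in 9 of 17 alternatives and was lost without any 1 of the ES, HB or HE2 libraries, without HE1 replicate 2 and with only the 4 libraries compared). Mc3r had no count in any library, and Mc2r, Mc4r and the accessory protein genes Mrap and Mrap2 did not exceed 0.286 CPM. Pomc, the precursor of the activating melanocortin peptides, was at 0.673 and 0.892 CPM in HE1 and 0.305 and 0.19 CPM in HE2 (-1.65, SE 0.517, adjusted p = 0.0583). Asip, which encodes the antagonist agouti and is listed under its older symbol, was at 27.5 and 29.3 CPM in HE1 and 32.1 and 35.7 CPM in HE2 (0.25, SE 0.2, adjusted p = 0.37). Of the 14 other genes of the melanocortin list 9 were tested. In HE2, 0 were called higher and 1 lower, against 3.26% and 5.39% of all tested genes. In HP none was called, against 5.35% higher and 11.2% lower. These counts lie near the shares over all tested genes, and nothing about the melanocortin system is read from them.

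Fgl2 rose without the genes of fibrinogen itself. Fga and Fgb had at most 4 counts in a library, Fgg was at most at 0.132 CPM in HE1, HE2 and HP, and the paralog Fgl1 at most at 0.305 CPM there. All were far below Fgl2 in HE2 and HP, while in HE1 replicate 2 Fgg had 4 counts against 5 of Fgl2. Fcgr3 and Fcgr2b, Fc gamma receptors of which the second is a known receptor of soluble FGL2, were among the 5 called higher in HE2 of 12 tested and 16 other genes in the fibrinogen and coagulation list, with 0 lower, against 3.26% called higher and 5.39% lower over all tested genes. Fcgr3 rose from 0.252 and 0.132 CPM to 3.78 and 5.46 CPM in HE2 (log2 difference 4.6, SE 0.474, adjusted p = 0.000655). Fcgr2b, with 0 and 2 counts in HE1, reached 0.67 and 1.17 CPM in HE2 (4.53, SE 0.784, adjusted p = 0.00905). It was higher in ES, at 3.3 and 3.59 CPM, than in HE2 or in HP, at 2.1 and 1.97 CPM. F13a1, the A subunit of factor XIII, which cross-links fibrin, rose from 1.22 and 0.198 to 18.2 and 27.6 CPM (5.07, SE 0.552, adjusted p = 0.000759) and ranked 8 beside the members. F5, the cofactor of prothrombinase, rose to 37.5 and 41.5 CPM (2.42, SE 0.404, adjusted p = 0.00749) and F10 to 8.99 and 13.6 CPM (1.85, SE 0.465, adjusted p = 0.0326). All but F10 held their call in all 17 alternatives, and F10 held it in 13, losing it without HE1 replicate 2, HE2 replicate 2 or HB replicate 2 and with only the 4 libraries compared. In HP the same list had 5 called higher and 2 lower of 12 tested, against 5.35% and 11.2% over all tested genes. The 2 lower were the endothelial anticoagulants Thbd (-2.97, adjusted p = 0.00252) and Tfpi (-1.70, adjusted p = 0.000207). F2, which encodes prothrombin, was at most at 0.363 CPM in HE1, HE2 and HP. Over whole lists, the median log2 difference of HE2 over HE1 was 0.12 for the tested IL-18 genes, -0.13 for the TRAF3 genes, -0.14 for the melanocortin genes and -0.18 for the fibrinogen and coagulation genes, members left out, against -0.075 over all tested genes. In HP over HE1 these medians were 0.99, 0.17, -0.30 and -0.51, against -0.02.

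**Figure D5:**
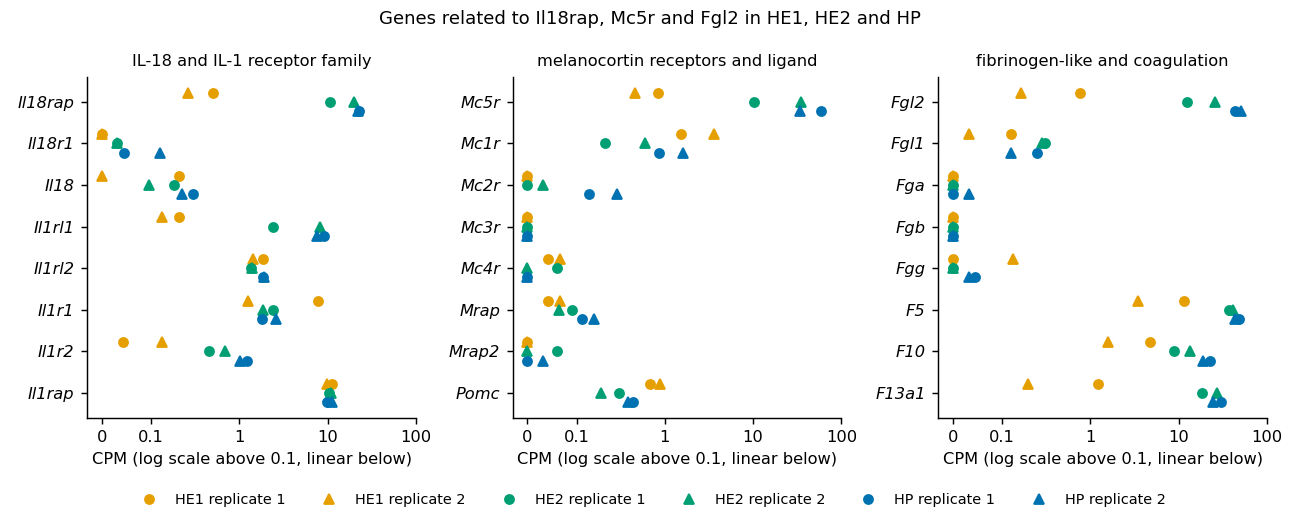
CPM in each HE1, HE2 and HP library (horizontal axis, log scale above 0.1 and linear below, circles for replicate 1 and triangles for replicate 2) of the genes related to Il18rap, Mc5r and Fgl2. Il18rap, Mc5r and Fgl2 stand at 10.2 CPM or more in HE2 and HP beside Il18r1, Mc3r and Fgb at or near 0, while Il1rl1, F5, F10 and F13a1 shift in the same direction.

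The comparison of HB with ES took no part in the choice of the genes and was tested. Of all genes, 17.3% were called lower and 11.5% higher in HB. Mc5r fell from 5.06 ± 0.577 CPM in ES to 0.21 ± 0.217 CPM in HB (SD, n = 2), a log2 difference of -4.64 (SE 0.769, adjusted p = 0.000855, edgeR), and kept its call in every alternative. Fgl2 fell from 0.904 ± 0.102 to 0.198 ± 0.000833 CPM, a log2 difference of -2.18 (SE 0.622, adjusted p = 0.0171, edgeR), but the call was lost with limma-voom (adjusted p = 0.112) and without ES replicate 1 (adjusted p = 0.068), HB replicate 1 (adjusted p = 0.0843) or HB replicate 2 (adjusted p = 0.0948). Il18rap (1.21, SE 0.865, adjusted p = 0.302) and Traf3ip3 (1.92, SE 0.923, adjusted p = 0.126) did not pass, at levels near the floor, and the difference of Il18rap turned to -0.17 without HB replicate 1. From HB to HE1 the differences were 1.13 for Fgl2 (SE 0.729), 1.27 for Il18rap (SE 0.703), 1.02 for Traf3ip3 (SE 0.699) and 1.65 for Mc5r (SE 0.936), given as a description because the HE1 libraries served in choosing the genes, and that of Fgl2 turned to -0.26 without HE1 replicate 1. The profile of Mc5r had a first level in ES, a low in HB and HE1 and a second, higher level from HE2 on, and that of Il18rap and Traf3ip3 a single rise.

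The likeness of the profiles is given as a description. Over the 10 libraries, which share their stages, the Pearson r of log2 CPM was 0.978 between Il18rap and Traf3ip3, 0.928 to 0.931 between Fgl2 and the other members, 0.792 between Il18rap and Mc5r and 0.765 between Traf3ip3 and Mc5r. Over the 6 libraries of HE1, HE2 and HP all pairs lay between 0.986 and 0.996, values that the choice of the genes by their rise over HE1 fixes in large part. The tested gene most like Fgl2 was Pla2g4a (r = 0.992), which encodes cytosolic phospholipase A2, followed by Treml2 (0.99), Adgrg1 (0.988), Gse1 (0.987) and Ank3 (0.985). For Il18rap it was Csf3r (0.995), the G-CSF receptor, followed by Ptpn7 (0.99), Myom1 (0.99), Vav1 (0.988) and Clec5a (0.988). For Traf3ip3 it was Tyrobp (0.995), which encodes the adaptor DAP12, followed by Trmt2b (0.994), Asb17 (0.994), F630028O10Rik (0.991) and Pkd1l3 (0.991). For Mc5r it was the cell cycle factor gene E2f2 (0.987), followed by Myo1f (0.986), Xk (0.985), Susd1 (0.984) and Stat4 (0.982), each with more signal in ES than in HB, like Mc5r itself. Csf3r, at 0.68 ± 0.168 CPM in HE1, 16.5 ± 2.37 CPM in HE2 and 20 ± 6.13 CPM in HP, and Tyrobp, at 0.15 ± 0.0255, 4.09 ± 0.998 and 12.4 ± 2.65 CPM (SD, n = 2), show how such genes ran. The lists are not stable: by Spearman's rho 1 of the 5 genes most like Mc5r and 0 of those of the other members were the same, and with only the 6 libraries of HE1, HE2 and HP 0 were the same for each member.

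Most genes around the members were not called higher in HE2 than in HE1 or were not tested. Of all tested genes only 3.26% were called higher, so nothing about these loci is read from neighbours without a call. Slc9a4, Mc2r, Ccdc146 and Gm15872 were too low to test. Gsap and Fam185a on either side of Fgl2, Lamb3 beside Traf3ip3 and Rnmt before Mc5r were not called in HE2 over HE1, and Rnmt stood at 80 and 86.2 CPM in HE1 and 84.7 and 82.1 CPM in HE2 (0.01, adjusted p = 0.989). Slc9a4, after Il18rap, had no count in any library, and Mc2r, the next gene after Mc5r, was at most at 0.286 CPM. A130010J15Rik, which overlaps the end of Traf3ip3 on the opposite strand, was called higher in HE2, from 7.4 and 4.99 to 10.5 and 14.9 CPM (1.04, adjusted p = 0.0402), but was at 9.98 to 15.1 CPM in ES, HB and HP, where Traf3ip3 ran from 0.0177 to 24.5 CPM. Ccdc146, within which Fgl2 lies on the opposite strand, was at most at 0.509 CPM, and the antisense gene Gm15872 within Traf3ip3 at most at 0.0574 CPM. Reads were counted by strand, and those that overlap several genes on a strand were counted for each.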

How the data were processed

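The data are nuclear RNA libraries of HM-1 derived ES, HB, HE1, HE2 and HP cells, 2 per stage, prepared after rRNA depletion with a directional kit. The authors removed rRNA reads with RiboDetector, trimmed with Trimmomatic, used Hisat2 (v2.2.1) for alignment to the mm10 build, and deposited read counts per gene made with featureCounts (v2.0.1, reversely stranded, paired, overlapping features allowed, Ensembl 102). A deposited matrix of the authors' stage means, a score derived from log2 CPM, served to find the genes and as an alternative. Library totals ran from 24920434 to 58782055.

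Counts were fitted in edgeR (v4.0.16, R v4.3.3), with genes kept by filterByExpr (22596), TMM scaling, a stage term over all 10 libraries and the quasi-likelihood F test. P-values were adjusted by Benjamini-Hochberg over all tested genes, and a call needs an adjusted p under 0.05 and at least 2-fold. Standard errors were derived from the F statistic, intervals are 95%, and log2 CPM used a prior count of 2. The procedure was tested on simulated data. Alternatives used limma-voom (v3.58.1), DESeq2 (v1.42.0) and the settings named at the end of the text. Symbols came from the files and the GRCm38 annotation.

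The members and the gene lists were chosen with earlier results of these data known, so no list is independent support. Named genes are the members; from each pathway list the genes called in HE2 over HE1 and direct partners of a member; the 5 genes most like each member; neighbouring and overlapping genes; genes next in rank; and the sorted antigens. C1qa, C1qb, Cd68, Cd3g, Ncr1, Cma1, Irak4, Adgre1, Itgam, Lyz2, Cx3cr1, Mpeg1, Fcer1g, Fcgr1, Hbb-y, Irf7, Cdh5, Runx1, Cpa3, Itgb3, Thbd, Tfpi, F2 and Casp1 were named after their values were seen. A gene the rule would name is not reported here.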

Additional observations from a re-analysis of the deposited data

How the results depend on the processing

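With 2 libraries a stage the precision is limited, and near the floor of 3 counts the order of ES, HB and HE1 cannot be resolved. The direction of the members' rises over HE1 and of HP over HE2 held under every alternative run. Replicate numbers did not pair the libraries (correlations of replicate differences between stages from -0.32 to 0.21). With a replicate block, 651 genes were called higher and 766 lower in HE2 than in HE1, against 737 and 1217 without it. For HE2 over HE1 the lower calls numbered 2864 when low counts were not filtered and 505 when the 4 libraries of HE1 and HE2 were fitted alone. For HP over HE2, where 0 were called, limma-voom called 35 higher and 27 lower, DESeq2 108 and 193, no filter 145 and 389, and only the 4 libraries 19 and 35. Fgl2 in HB over ES was at -2.12 with limma-voom (adjusted p = 0.112).

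In the list counts of HE2 over HE1, 1 IL-18 gene was called lower with DESeq2 and with no filter. No TRAF3 gene was called higher (0) with total counts, with only the 4 libraries, with the replicate block or with only matrix genes, and 1 was called lower with total counts and with the 4 libraries, 0 with the block. Of the melanocortin genes, 0 were called lower with the 4 libraries and 2 with only matrix genes, and of the fibrinogen genes 2 with no filter. Of the 5 genes most like a member, Spearman's rho shared 0 for Fgl2, Il18rap and Traf3ip3 and 1 for Mc5r, and the 6 libraries of HE1, HE2 and HP shared 0 for each. The cause of these shifts was not tested.

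With each library left out in turn, a lone library is assumed to vary like the other stages. Genes called higher and lower ran from 314 to 1265 and 106 to 2618 in HE2 over HE1, 756 to 1658 and 1145 to 3402 in HP over HE1, 0 to 47 and 0 to 471 in HP over HE2, 1896 to 2777 and 2827 to 4173 in HB over ES, and 1515 to 3135 and 1230 to 2012 in HE1 over HB. In HE2 over HE1 the lowest counts came without HE2 replicate 2 and the highest without HE1 replicate 1. Log2 differences of HE2 over HE1 ran from 4.64 to 6.82 for Fgl2, 4.84 to 5.84 for Il18rap, 4.69 to 5.62 for Traf3ip3 and 3.99 to 5.77 for Mc5r, and of HP over HE1 from 5.94 to 8.11, 5.47 to 6.39, 5.87 to 6.45 and 5.74 to 6.64. In HP over HE2 they ran from 0.87 to 1.91, 0.19 to 1.05, 0.56 to 1.49 and 0.41 to 2.19. In HB over ES they ran from -2.27 to -2.04, -0.17 to 2.29, 0.92 to 2.73 and -6.38 to -3.79, with Fgl2 at -2.04 without ES replicate 1, -2.16 without HB replicate 1 and -2.18 without HB replicate 2. In HE1 over HB they ran from -0.26 to 1.92, 0.50 to 2.61, 0.45 to 2.02 and 0.81 to 3.37, with the reversal of Fgl2 to -0.26 without HE1 replicate 1. The level in HE2 as a percent of HP ran from 26.6 to 54.7, 48.3 to 87.9, 35.7 to 67.7 and 22 to 75.4. List genes called higher ran from 1 to 4 (IL-18), 0 to 1 (TRAF3) and 4 to 5 (fibrinogen), and lower from 0 to 3 (TRAF3), 0 to 3 (melanocortin) and 0 to 1 (fibrinogen).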
